A study of Saccharomyces cerevisiae with 4 samples.

Results

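The filamentation pathway of budding yeast carries a signal from the cell surface to genes that make cells elongate, adhere to each other and invade a surface. In this pathway the signalling mucin Msb2, the tetraspan protein Sho1 and the membrane anchor Opy2 sit in the plasma membrane and act through the GTPase Cdc42 on a kinase cascade (Ste20, Ste11 with its adaptor Ste50, Ste7 and the MAP kinase Kss1), which controls the transcription factors Ste12 and Tec1. A second mucin, Hkr1, is best known as a sensor of the high osmolarity glycerol (HOG) pathway, with which Msb2, Sho1, Opy2, Ste20, Ste50 and Ste11 are shared. The outputs considered here are NFG1 (YLR042C), a cell wall protein gene known as a negative regulator of filamentous growth, PGU1, the gene of a secreted pectin-cleaving enzyme, and SVS1, a cell wall and vacuolar protein gene. The 7 genes were taken by ORF name, 4 as sensors (MSB2, YGR014W; SHO1, YER118C; OPY2, YPR075C; HKR1, YDR420W) and 3 as outputs (NFG1, YLR042C; PGU1, YJR153W; SVS1, YPL163C), and all 7 were present among the 6348 ORFs listed in the counts.

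Poly(A) RNA was sequenced from 2 cultures of a tetraploid MATaaaa strain and 2 cultures of the isogenic haploid MATa strain, both of the filament-forming background Σ1278b. Both strains carry ura3-52, leu2::hisG and his3::hisG. All cultures were grown to mid-log phase at 30 °C in synthetic complete medium with 2% glucose, and 1 tetraploid and 1 haploid culture formed each of the pairs A and B. Each ploidy is thus a single strain. Unless stated otherwise, p-values set the tetraploid to haploid difference against its variation between pairs A and B. With only 2 pairs, the variance of each gene was moderated towards that of other genes. The p-values and standard errors thus rest largely on variation shared over genes, not on a gene's own 2 pairs alone. They do not measure the spread between cultures of one ploidy. Tetraploid cells are larger than haploid cells, and levels here are relative to the other reads of a library after scaling between libraries. Fewer cells of one kind and less RNA per cell cannot be told apart.

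The libraries held 4133193 and 4036830 reads on ORFs in tetraploids A and B, against 3735445 and 3612527 in haploids A and B. Counts were scaled with edgeR's TMM factors to counts per 1000000 reads (CPM). Differences were tested by edgeR's quasi-likelihood method, in which the pair entered as a block. Of 5680 genes tested, 304 (5.35%) were called lower in tetraploids and 143 (2.52%) higher, 7.87% in all, at a Benjamini-Hochberg adjusted p under 0.05. Log2 fold changes are tetraploid over haploid throughout, and the median over all tested genes was 0.01. The labelled mating type was checked with marker genes: the a-specific MFA1, MFA2, STE2 and BAR1 had between 7.99 and 664 CPM, while the alpha-factor genes MFALPHA1 and MFALPHA2 had between 0 and 13 reads in any library. The alpha-specific STE3 and SAG1 had between 28 and 61 reads, or 6.48 to 17.2 CPM. That range overlaps the MFA1 values of 7.99 and 12.3 CPM in tetraploids A and B, so MFA1 is not set apart from them there. All 4 a-specific genes were themselves lower in tetraploids (log2 fold changes of -2.43 to -1.59), and the ribosomal DNA ORFs took 36.6% and 33.3% of the reads in tetraploids A and B, against 38.3% and 39.1% in haploids A and B. The part of either in the results was not tested.

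Of the 7 genes, 4 were lower in tetraploids by this test: the sensor MSB2 and the outputs NFG1, PGU1 and SVS1. None was called higher, where 5.35% of all tested genes were lower and 2.52% higher. PGU1 passed the filter of 15 reads only through the haploid libraries, where it is high, and among the 6 genes with at least 15 reads in all libraries 3 were called lower (MSB2, NFG1 and SVS1). A fit limited to genes with at least 15 reads in all libraries called 380 of 5368 genes lower. The haploid level exceeded the tetraploid level 10.6-fold for NFG1, 3.28-fold for PGU1, 3.02-fold for SVS1 and 2.23-fold for MSB2. Without the block 3 of the 7 genes (MSB2, NFG1 and SVS1) were called lower and 0 higher, where 0.317% of all tested genes were lower and 0.0704% higher. SHO1 and OPY2 had smaller negative values that did not pass the threshold, and the HKR1 values overlapped between ploidies. The scaled values of tetraploids and haploids did not overlap for 6 of the 7 genes, all lower in tetraploids, whereas this held for 20.5% of all tested genes in that direction and 21.9% in the other. MSB2, NFG1 and SVS1 belong to a list of repressed genes that the study drew from these same libraries, so their direction is not independent evidence.

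**Figure D1:**
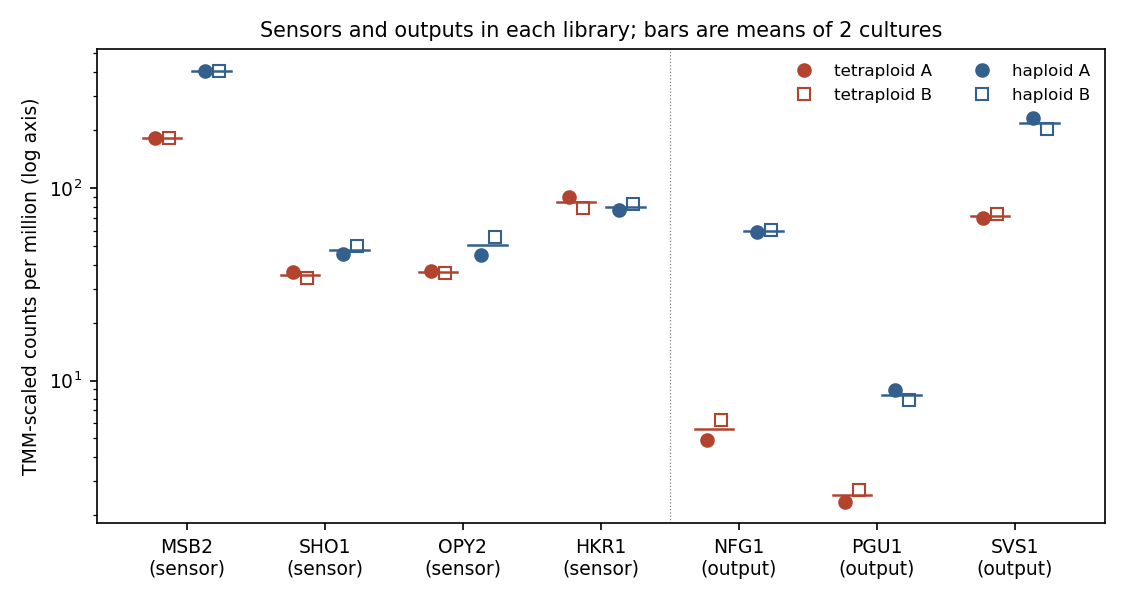
TMM-scaled CPM on a log axis for the 4 sensors and 3 outputs, with tetraploid libraries in red and haploid libraries in blue (circles, culture A; open squares, culture B) and bars for the means of 2 cultures. Tetraploid and haploid points are apart for every gene except HKR1, whose haploid values of 77.1 and 82.6 CPM lie around the tetraploid B value of 79.0 CPM.

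MSB2 encodes the mucin at the head of the pathway. It had 772 and 868 reads in tetraploids A and B, against 1274 and 1422 in haploids A and B. Scaled, it had 181 and 181 CPM in tetraploids, against 406 and 404 CPM in haploids, so that cultures of one ploidy nearly coincided. The mean was 181 ± 0.03 CPM in tetraploids and 405 ± 1.7 CPM in haploids (SD, n = 2 each). For counting error alone, 95% Poisson intervals were 718 to 828 and 811 to 928 reads in tetraploids A and B. Haploids A and B gave 1205 to 1346 and 1349 to 1498 reads. Relative to the level, counting error alone was thus larger than these SDs, so the SDs do not measure precision. Fitted over both pairs, tetraploids differed by -1.16 on the log2 scale (SE 0.12, edgeR adjusted p = 1.28e-05), with -1.16 in pair A and -1.15 in pair B. Only 0.933% of the tested genes had a lower value.

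SHO1 encodes the tetraspan membrane protein that works with Msb2. It had 155 and 163 reads in tetraploids A and B, against 142 and 175 in haploids A and B, which is 36.4 and 34.1 CPM in tetraploids, against 45.3 and 49.7 CPM in haploids. Both tetraploid values lay below both haploid values, with a log2 fold change of -0.43 (95% interval -0.75 to -0.11, edgeR adjusted p = 0.0858). Pair A gave -0.31 and pair B -0.54. OPY2 encodes the membrane anchor for the adaptor Ste50. It had 158 and 174 reads in tetraploids, against 141 and 197 in haploids, or 37.1 and 36.4 CPM in tetraploids, against 44.9 and 55.9 CPM in haploids. Its log2 fold change was -0.46 (95% interval -0.78 to -0.14, edgeR adjusted p = 0.0727). It was -0.28 in pair A, the value left without either B library, and -0.62 in pair B. The unadjusted p was 0.0109 for SHO1 and 0.00803 for OPY2 from the same edgeR fit, and with DESeq2's size factors in place of TMM factors both passed, with adjusted p = 0.0435 for SHO1 and 0.0281 for OPY2. Scaling by total counts instead gave -0.14 for SHO1 and -0.17 for OPY2, while the median over all genes was then 0.30. The DESeq2 test, adjusted over all genes, called neither, with adjusted p = 0.901 for SHO1 and 0.858 for OPY2.

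HKR1, the gene of the second mucin, was the only sensor whose scaled values overlapped between ploidies, though SHO1 and OPY2 were not called either. It had 383 and 378 reads in tetraploids A and B, against 242 and 291 in haploids A and B. After scaling this was 89.997 and 79.0 CPM in tetraploids, against 77.1 and 82.6 CPM in haploids, and the groups overlapped. The log2 fold change was 0.08 (95% interval -0.21 to 0.36, edgeR adjusted p = 0.765), with 0.22 in pair A and -0.06 in pair B. This interval lies wholly above those of MSB2 and of the 3 outputs. Msb2 and Hkr1 both contain repeated stretches, and reads that mapped to more than one place were, per the study's methods, left out for differential expression. How many reads this removed from either gene was not tested.

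The counts of 2 genes within one library can be set against each other without any scaling between libraries. There were 0.496 and 0.435 HKR1 reads per MSB2 read in tetraploids A and B, against 0.190 and 0.205 in haploids A and B. SHO1 gave 0.201 and 0.188 reads per MSB2 read in tetraploids, against 0.111 and 0.123 in haploids, and OPY2 gave 0.205 and 0.200 in tetraploids, against 0.111 and 0.139 in haploids. Relative to MSB2, each of the other sensors was thus higher in both tetraploids than in both haploids. Only 0.933% of the tested genes had a lower log2 fold change than MSB2, so by the fit most genes were higher relative to it. These ratios therefore do not set the other sensors apart. The balance of SHO1 and OPY2 differed less between ploidies than between haploid cultures, with 0.981 and 0.937 SHO1 reads per OPY2 read in tetraploids, against 1.01 and 0.888 in haploids. In an exact two-sided permutation test over the 4 libraries the 3 ratios to MSB2 each had p = 0.333, the smallest value that 2 against 2 libraries allow, and 10 such ratios were computed. A design of this size cannot pass 0.05, and a ratio that differs shows unequal values of 2 genes without saying which of them moved.

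**Figure D2:**
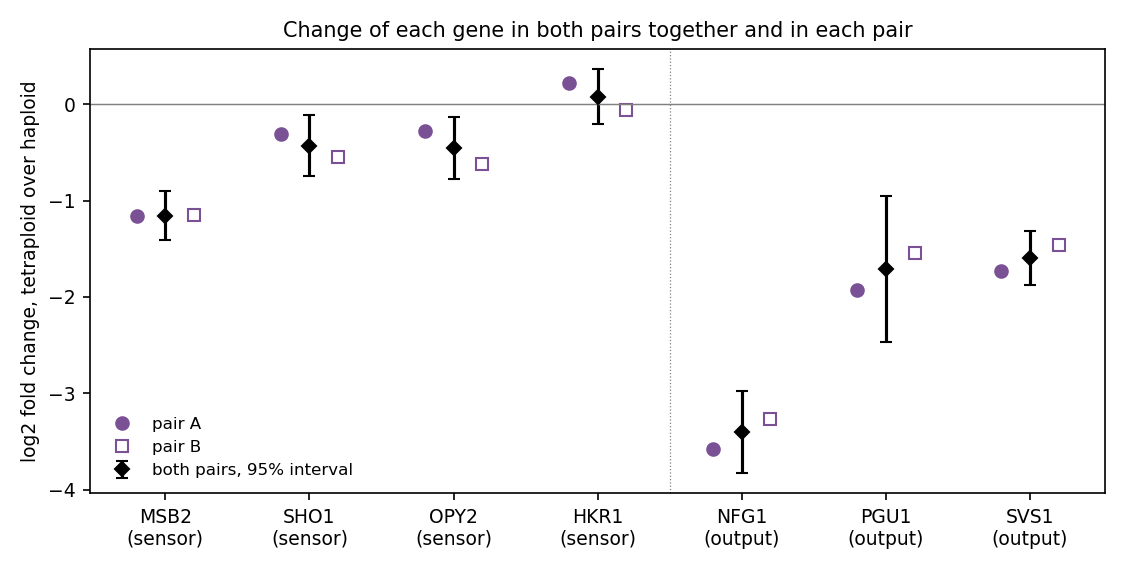
Log2 fold change of tetraploid over haploid for each gene, with diamonds and bars for the fit over both pairs and its 95% interval, circles for pair A and open squares for pair B. The 3 outputs and MSB2 lie below -0.90 with their whole intervals, and the HKR1 interval lies on both sides of 0.

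NFG1 showed the largest difference of the 7 genes. It had 21 and 30 reads in tetraploids A and B, against 185 and 213 in haploids A and B, which is 4.93 and 6.27 CPM in tetraploids, against 59.0 and 60.5 CPM in haploids. The tetraploid values were low in both cultures and the haploid values nearly equal, a 10.6-fold higher level in haploids by the fit. Its log2 fold change had rank 3 from the lowest of the 5680 tested genes, at -3.58 in pair A and -3.27 in pair B, and -3.40 overall (95% interval -3.83 to -2.98, edgeR adjusted p = 2.18e-08).

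SVS1 had 296 and 352 reads in tetraploids A and B, against 725 and 713 in haploids A and B. Scaled, it had 69.6 and 73.5 CPM in tetraploids, against 231 and 202 CPM in haploids, with means of 71.6 ± 2.8 CPM in tetraploids and 217 ± 20.3 CPM in haploids (SD, n = 2 each). Fitted over both pairs, the log2 value was -1.59 (SE 0.13, edgeR adjusted p = 8.13e-07), with -1.73 in pair A and -1.46 in pair B.

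PGU1 was the least sampled of the 7 genes. It had 10 and 13 reads in tetraploids A and B, against 28 and 28 in haploids A and B, or 2.35 and 2.72 CPM in tetraploids, against 8.92 and 7.95 CPM in haploids. The 95% Poisson intervals, which cover counting error alone, were 4.8 to 18.4 and 6.9 to 22.2 reads in tetraploids, against 18.6 to 40.5 reads in each haploid. The fitted log2 value was -1.71 (SE 0.36, edgeR adjusted p = 0.00827). A gene that passes the filter only where it is high had to differ, and the PGU1 call was lost without the block (adjusted p = 0.129), without the filter (adjusted p = 0.0547) and with DESeq2 adjusted over all genes (adjusted p = 0.366).

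The balance among the outputs did not overlap between ploidies. NFG1 gave 0.0709 and 0.0852 reads per SVS1 read in tetraploids A and B, against 0.255 and 0.299 in haploids A and B. Both outputs had fewer reads per MSB2 read in each tetraploid than in either haploid: SVS1 gave 0.383 and 0.406 reads per MSB2 read in tetraploids, against 0.569 and 0.501 in haploids, and NFG1 gave 0.0272 and 0.0346 in tetraploids, against 0.145 and 0.1498 in haploids. Each of these 3 ratios had the smallest exact permutation p of 0.333.

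**Figure D3:**
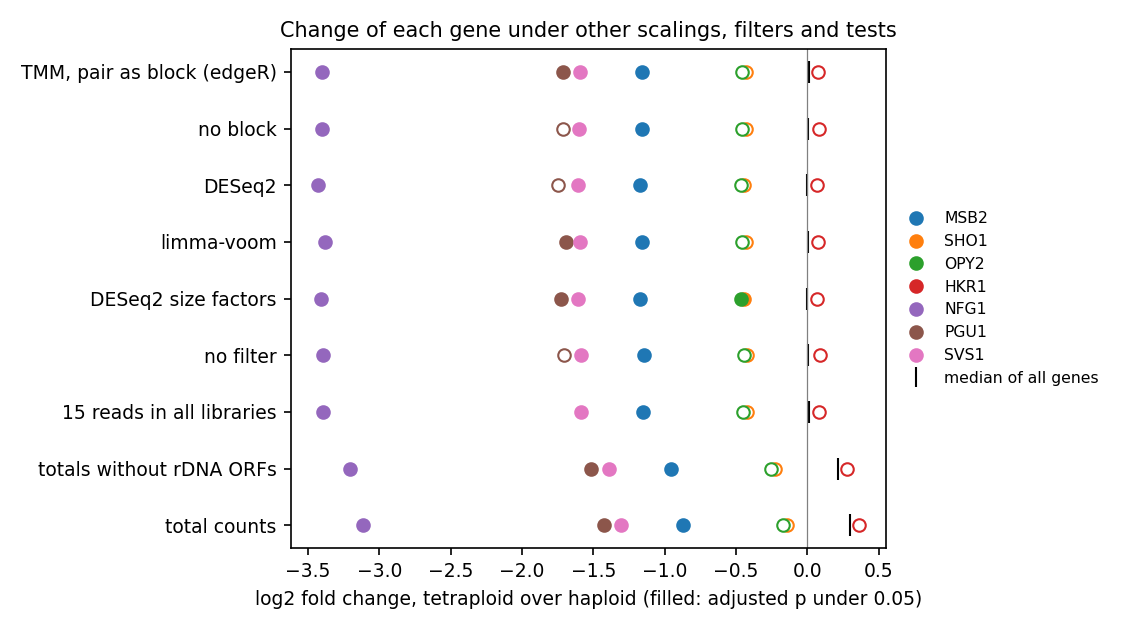
Log2 fold change of tetraploid over haploid for each gene (colours) under the main setting in the top row and 8 other settings below it, filled where the adjusted p was under 0.05, with a black tick for the median of all tested genes. NFG1, SVS1 and MSB2 are filled in every row, PGU1 is open in 3 rows and missing where 15 reads were required in all libraries, and the 2 bottom rows shift all genes upwards together with the tick.

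The likeness of patterns was measured as the Euclidean distance between profiles of log2 CPM over the 4 libraries, each centred on the gene's own mean. Among the 7 genes, the closest were PGU1 and SVS1, at 0.0778, which were also the nearest of all tested genes to each other. SHO1 and OPY2 followed at 0.136, and the farthest apart were NFG1 and HKR1, at 3.41. PGU1 had 10 to 28 reads per library and passed the filter only through the haploid libraries. Its short distance to SVS1 is therefore no evidence of a shared pattern. After each other, PGU1 and SVS1 both had as next neighbours STE4, the beta subunit of the mating G protein, and the ORF YKR012C. The number of YKR012C places it beside PRY2 (YKR013W), and whether reads of PRY2 were counted for it was not tested. For NFG1 the nearest were MFA1 (an a-factor pheromone gene, 0.929), FUS1 (a cell fusion gene of the pheromone response, 1.19) and FRE4 (a ferric reductase family gene, 1.23), and only 0.0176% of the other genes lay within a distance of 1. MSB2 had YIL102C-A (0.101), GYP8 (0.111) and NGK1 (0.159) nearest, of which YIL102C-A had 8 to 16 reads. For SHO1 they were ATS1, ALT2 and YEA6, for OPY2 YER088C-A, YHR213W-B and SMP1, and for HKR1 MKK2, PBP1 and CKI1, all within 0.056. Where 88.6% to 94.7% of all genes lie within a distance of 1, as for these 3 sensors, a short distance is common. With only 4 libraries the distances are a description.

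Reads on both strands were counted, so the genes beside the 7 were examined in the gene order of the reference strain S288C. None of the 7 genes was overlapped by another listed ORF of that annotation. The left neighbour of NFG1, AFB1 (YLR040C), had 18 and 33 reads in tetraploids A and B, against 69 and 75 in haploids A and B, and was called lower (log2 fold change -1.94, edgeR adjusted p = 0.000164). YLR041W, which has no entry in that annotation and whose number places it between them, had 6 and 17 reads in tetraploids, against 21 and 21 in haploids (edgeR adjusted p = 0.0646), and whether it overlaps NFG1 in the Σ1278b genome was not tested. The right neighbour of NFG1, the thioredoxin gene TRX1, had 781 and 918 reads in tetraploids, against 627 and 651 in haploids, and a log2 fold change of -0.03. Beside SVS1, YPL162C was called lower too (-0.84, edgeR adjusted p = 0.0177), and MLH3, a mismatch repair gene, was not (0.14, edgeR adjusted p = 0.835). The other placed neighbours (of MSB2, SHO1, OPY2, HKR1 and PGU1) were not called where tested.

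Between sensors and outputs, 21 genes of the cascade and its regulators were listed, and all passed the filter on low counts. The test called 4 of them lower, none higher, and 17 neither way, where 5.35% of all tested genes were lower. STE12, the transcription factor shared with the mating pathway, had 101 and 123 reads in tetraploids A and B, against 161 and 161 in haploids A and B, which gave a log2 value of -0.97 (edgeR adjusted p = 0.00145). KSS1, the filamentation MAP kinase, had 86 and 98 reads in tetraploids, against 84 and 127 in haploids (-0.63, edgeR adjusted p = 0.0470). The others called were PMT4, a mannosyltransferase that modifies Msb2, at -0.48, and YPS1, a yapsin protease that cleaves Msb2, at -0.47.

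TEC1, the partner of Ste12 at filamentation genes, had 113 and 133 reads in tetraploids A and B, against 80 and 111 in haploids A and B. Scaled, it had 26.6 and 27.8 CPM in tetraploids, against 25.5 and 31.5 CPM in haploids, and these overlapped (log2 fold change -0.07, 95% interval -0.44 to 0.30, edgeR adjusted p = 0.844). The median of the 21 genes was -0.16, against 0.01 for all tested genes. Without the block 0 of the 4 calls were kept, and under total-count scaling 1 was (STE12) and the median turned to 0.13, below the 0.30 of all genes.

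Among 11 further genes known for filamentous growth, all of which passed the filter, 6 were called lower, none higher and 5 neither way, where 5.35% of all tested genes were lower and 2.52% higher. The flocculin gene FLO11 had 297 and 342 reads in tetraploids A and B, against 6247 and 2812 in haploids A and B, and the lowest log2 fold change of all tested genes (-4.16, with -4.83 in pair A and -3.48 in pair B). DDR48, a stress protein gene, had 48.4 and 26.7 CPM in tetraploids, against 146 and 106 CPM in haploids (log2 fold change -1.78). PRY2, a secreted sterol-binding protein gene, had 95.4 and 127 CPM in tetraploids, against 360 and 375 CPM in haploids (-1.73). MGA1, a gene of the heat shock factor family, had 11.7 and 5.85 CPM in tetraploids, against 24.2 and 13.6 CPM in haploids (-1.11). FLO11, DDR48 and PRY2 are, like MSB2, NFG1 and SVS1, in the list the study drew from these libraries. So are MFA1, MFA2, STE2, BAR1, AFB1, STE4, FUS1, FRE4 and GYP8, which are named elsewhere here. The lower values of all these genes are therefore not independent evidence.

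The median of the 11 genes was -0.64. Without the block 2 of the 6 calls were kept (FLO11 and PRY2), and under total-count scaling 4 genes were lower and 1, FLO8, was higher. Of all 5680 tested genes, total-count scaling called 115 lower and 1168 higher. FLO8 encodes an activator of FLO11 and had a log2 fold change of 0.19 with TMM factors (edgeR adjusted p = 0.469).

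**Figure D4:**
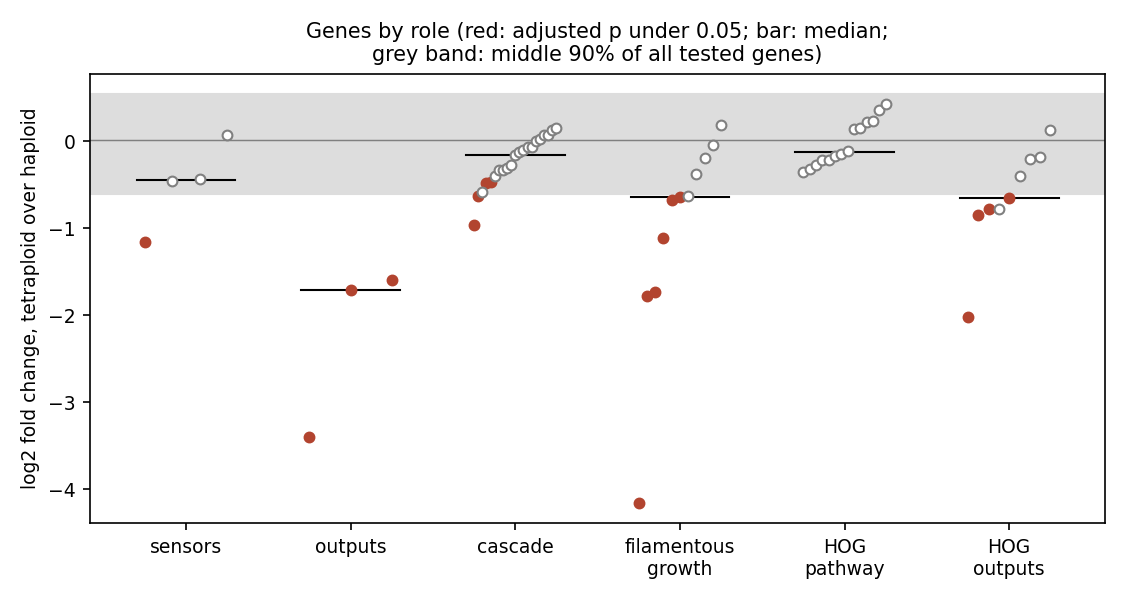
Log2 fold change of tetraploid over haploid for single genes grouped by role, red where the adjusted p was under 0.05 and open where not, with bars for group medians and a grey band for the middle 90% of all tested genes (-0.61 to 0.55). All 3 outputs and MSB2 lie below the band, as do STE12 and KSS1 of the cascade and the lowest filamentous growth genes. The lowest HOG outputs also lie below it, whereas the HOG pathway genes lie within it. The medians were -0.65 for HOG outputs and -0.64 for filamentous growth genes.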

How the data were processed

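Per the study's methods, the authors mapped reads of 36 cycles to the Σ1278b genome with Bowtie and counted reads on both strands of each annotated ORF, and the deposited files give whole-number counts without normalization (lowest listed count 2; an unlisted ORF was taken as 0). Here genes with at least 15 reads in 1 or more libraries of both pairs were kept and analysed with edgeR 4.0.16 (TMM factors, quasi-likelihood test, Benjamini-Hochberg adjustment) in R 4.3.3. The pair was a block because the study compares its libraries in pairs. Across genes, the A minus B differences of haploids and tetraploids correlated (r = 0.53). The standard error is the fold change divided by the square root of F. CPM for likeness used a prior count of 2. Precision is set by 2 cultures per ploidy and, for PGU1, by counts.

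The 7 genes and all lists were chosen with earlier results of these data known. Named were the 7 genes, from each list up to 4 called genes of largest change in each direction with FLO11, KSS1, STE12, TEC1 and HOG1, the mating type markers, the 3 nearest profiles and neighbouring ORFs; YLR041W, FLO8, YPD1, PTP2 and STL1 were added after their values were seen. Gene names come from RefSeq R64 (S288C), which has 5754 of the 6348 ORFs. Its build differs from that of the counts, so its coordinates served only to find neighbouring and overlapping ORFs. No lengths or sequences from it were used, and levels of different genes were not compared per length. DESeq2 1.42.0, limma-voom 3.58.1, other scalings and filters, no block and leaving out each library were alternatives. The fit was tested on simulated counts.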

Additional observations from a re-analysis of the deposited data

How the results depend on the processing

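Among the 7 genes, NFG1 and SVS1 kept their direction and call under every alternative that gave an adjusted p, and MSB2 lost its call only without tetraploid B and without the block (edgeR adjusted p = 0.0604; 0.0308 to 0.0489 without each of the other libraries). In such fits the lone library is assumed to vary as the other ploidy does. With the block, a left-out library leaves 1 complete pair and a value with no test. Leaving out each library gave -1.16 to -1.15 for MSB2 and -1.93 to -1.55 for PGU1 (-1.63, -1.62, -1.80 and -1.83 without the block). Without the replicate block PGU1 was -1.72, without the filter -1.70 and with DESeq2 adjusted over all genes -1.75, none past the threshold; DESeq2's own filter gave PGU1 and NFG1 no adjusted p. With DESeq2 size factors in edgeR, SHO1 (-0.44) and OPY2 (-0.47) passed.

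Counts with a library left out come from fits that also lack the block, so both choices changed there and those counts are to be read against the ones without the block alone. Of the 7 genes, 4 were called lower, against 2 with DESeq2's own filter, 3 without the replicate block, and 2 to 3 with a library left out as well. The cascade's 4 calls became 0 without the replicate block, 0 with DESeq2 under either adjustment, 1 with total counts, 1 with total counts outside the ribosomal DNA ORFs, 1 with no filter, and 0 with the block dropped and any library left out. The 6 filamentous growth calls became 2 without the replicate block, 3 with DESeq2 under either adjustment, 3 with no filter, and 2 to 4 with the block dropped and a library left out. The 4 calls among HOG outputs became 0 without the replicate block, 2 with DESeq2 under either adjustment, 2 with total counts, 1 with no filter, and 0 to 3 with the block dropped and a library left out, and HOG pathway calls became 2 with total counts. Over all genes, the 304 lower and 143 higher calls became 18 and 4 without the replicate block, 133 and 23 with DESeq2, 124 and 17 with DESeq2 adjusted over all genes, 115 and 1168 with total counts, 130 and 431 with total counts outside the ribosomal DNA ORFs, 490 and 262 with DESeq2 size factors, and 87 and 12 with no filter. With 15 reads in all 4 libraries 216 were higher. With the block dropped, leaving out haploid A gave 20 lower and 5 higher, tetraploid A 75 and 8, haploid B 33 and 4, and tetraploid B 34 and 18. The cause of these shifts was not tested. DESeq2 adjusted over all genes and totals outside the ribosomal DNA ORFs were chosen after seeing the data. PGU1 had 10 to 28 reads per library, and the part of depth in its lost calls was not tested.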

Other observations

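The HOG pathway, which answers high osmolarity through Hog1 and to which MSB2, SHO1, OPY2 and HKR1 also belong, was looked at for comparison. Of its 14 other listed components, edgeR called 0, with 2 lower and 0 higher at an unadjusted p under 0.05, and DESeq2 also called 0. Of all 5680 tested genes, 7.87% were called in either direction, and 806 were lower and 600 higher at an unadjusted p under 0.05, so these counts do not set the 14 genes apart. HOG1, the MAP kinase, had 142 and 153 CPM in tetraploids A and B, against 205 and 166 CPM in haploids A and B, and a log2 fold change of -0.32 (edgeR adjusted p = 0.143). The median of the 14 genes was -0.13. Under total-count scaling it turned to 0.16, below the 0.30 of all genes, and 2 genes, YPD1 and PTP2, were then called higher. That scaling called 1168 of all 5680 tested genes higher, so these 2 calls do not set the 14 genes apart either.

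Of 9 osmostress genes downstream of Hog1, 4 were called lower, none higher and 5 neither way, where 5.35% of all tested genes were lower. HSP12, a membrane heat-shock protein gene, had 14 and 8 reads in tetraploids A and B, against 26 and 41 in haploids A and B (log2 fold change -2.02, edgeR adjusted p = 0.00409), and like PGU1 it passed the filter of 15 reads only through the haploid libraries. GPD1, the glycerol 3-phosphate dehydrogenase of glycerol synthesis, had 63.4 and 38.4 CPM in tetraploids, against 100.4 and 72.7 CPM in haploids (-0.78). GPP1, the phosphatase of the next step, had 199 and 280 CPM in tetraploids, against 367 and 378 CPM in haploids (-0.65). CTT1, the cytosolic catalase, had 30.5 and 13.0 CPM in tetraploids, against 65.97 and 17.03 CPM in haploids, so that cultures A and B of one ploidy differed more than the ploidies did in pair B. Without the block 0 of the 4 were called, and the glycerol transporter gene STL1 had 17 to 26 reads in all libraries.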
